A study of Mus musculus with 474 samples.

Results

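Among first-division daughters of mouse haematopoietic stem cells (HSCs), divisions with high Itga2b were set against divisions with low Itga2b. Sisters were joined by movie, culture experiment, position and colony, and divisions with 1 daughter labelled high and 1 labelled low for lysosome inheritance were kept. The groups were chosen by the measured Itga2b level: within each of 9 culture experiments the divisions were ranked by the sisters' mean log2(Itga2b CPM + 1), where CPM is counts-per-million on genes, ERCC spike-ins left out. The highest 64 divisions, called Itga2b-high, were compared with the lowest 64, called Itga2b-low, and 75 middle divisions lay between them. With 2 daughters each, and a further 68 cells outside these divisions, called cells without a sequenced sister here, these make up all cells analysed. Because Itga2b chose the groups, its difference between them is given as a description and was not tested.

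All cells have the same source in the labels, so the groups differ by Itga2b and not by a treatment. HSCs came from bone marrow of wild type male C57BL/6JRj mice aged 12 to 19 weeks and divided once in culture under time-lapse microscopy, after which each daughter was collected on its own for Smart-seq2, a full-length plate method. How many mice entered each experiment is not given in the sources used here. The experiment is the replicate, with 5 experiments in sequencing run 4 and 4 in run 5.

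Itga2b encodes integrin alphaIIb (CD41), which pairs with integrin beta3, the product of Itgb3, to form the platelet receptor for fibrinogen and von Willebrand factor. The gene is a classical marker of megakaryocytes and platelets. Some HSCs also carry it, and in mouse its product has been used to mark HSCs with a bias toward the megakaryocyte and platelet lineage. Its promoter is known for binding GATA and ETS family factors, which act together in megakaryocytes.

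Itga2b (ENSMUSG00000034664) lies on the minus strand of chr11:102453297-102470122 in GENCODE release M21. Sequence upstream of the start is shown for Itga2b, the gene that set the groups, and for Gp9, which encodes a subunit of the platelet receptor for von Willebrand factor. Each line gives the 250 bases before the RefSeq start on GRCm38.p6, read 5′ to 3′ on the gene's own strand, with capitals at every match of 2 short motifs on either strand. The motif GATAA is a core bound by GATA factors. The motif GGAAG is a core bound by ETS factors. The windows are chr11:102469884-102470133 on the minus strand for Itga2b and chr6:87777820-87778069 on the plus strand for Gp9. The RefSeq start of Itga2b lies inside the GENCODE gene, so most of its window overlaps that gene as annotated and is not upstream of its outermost start.
Itga2b: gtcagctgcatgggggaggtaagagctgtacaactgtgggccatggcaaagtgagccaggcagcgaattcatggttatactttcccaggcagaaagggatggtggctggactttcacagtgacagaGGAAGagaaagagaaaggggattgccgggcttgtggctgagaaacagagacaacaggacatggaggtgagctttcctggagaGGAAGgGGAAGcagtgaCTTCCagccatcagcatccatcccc
Gp9: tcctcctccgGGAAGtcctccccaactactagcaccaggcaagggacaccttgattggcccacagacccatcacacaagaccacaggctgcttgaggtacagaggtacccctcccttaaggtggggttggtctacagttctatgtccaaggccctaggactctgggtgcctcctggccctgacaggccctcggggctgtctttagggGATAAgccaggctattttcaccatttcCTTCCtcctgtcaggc
The ETS motif was found 4 times in the Itga2b window and 2 times in that of Gp9. The GATA motif was found 0 times in the Itga2b window and 1 time in that of Gp9. Among 32851 promoter windows of the same length, 64.1% held the ETS motif and 22.6% the GATA motif on either strand. These matches describe letters in a window and are not binding sites. Itgb3, Zbtb16 and Ly6a had no window in the table used.

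Itga2b was counted in 96.9% of the cells of Itga2b-high divisions, 62.7% of the middle cells and 19.5% of the cells of Itga2b-low divisions. Both sisters carried a count in 60 of 64 Itga2b-high divisions and in 1 of 64 Itga2b-low divisions, and neither did in 0 and 40. The median cell held 49.7 CPM (38 reads) in Itga2b-high divisions, 7.29 CPM in middle divisions and 0 CPM in Itga2b-low divisions. A count of 0 at the low group's median depth of 743450 counts allows up to 4.04 CPM (3 counts, counting error only), so a low level of Itga2b there was not detectable in many cells. Pooled per experiment, Itga2b ran from 34.3 to 480.0 CPM with a median of 90.04 CPM in Itga2b-high divisions, and from 0 to 5.72 CPM with a median of 0.51 CPM in Itga2b-low divisions. Experiment 69 was the highest of the Itga2b-high values.

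The groups were relative to each experiment, and their edges differed. The lowest Itga2b-high division of an experiment had a mean log2 value between 2.66 and 6.06, and the highest middle division between 2.22 and 5.14. The highest Itga2b-low division lay between 0 and 2.50, and the lowest middle division between 0 and 3.30. In experiment 76 every Itga2b-low division had no count, and some of the middle divisions tied with them at 0. Sisters shared part of their Itga2b level, with an intraclass correlation of 0.39 over all divisions after centring on experiment, and in 18 of 64 Itga2b-high divisions the sisters differed by more than 2 on the log2 scale.

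**Figure D1:**
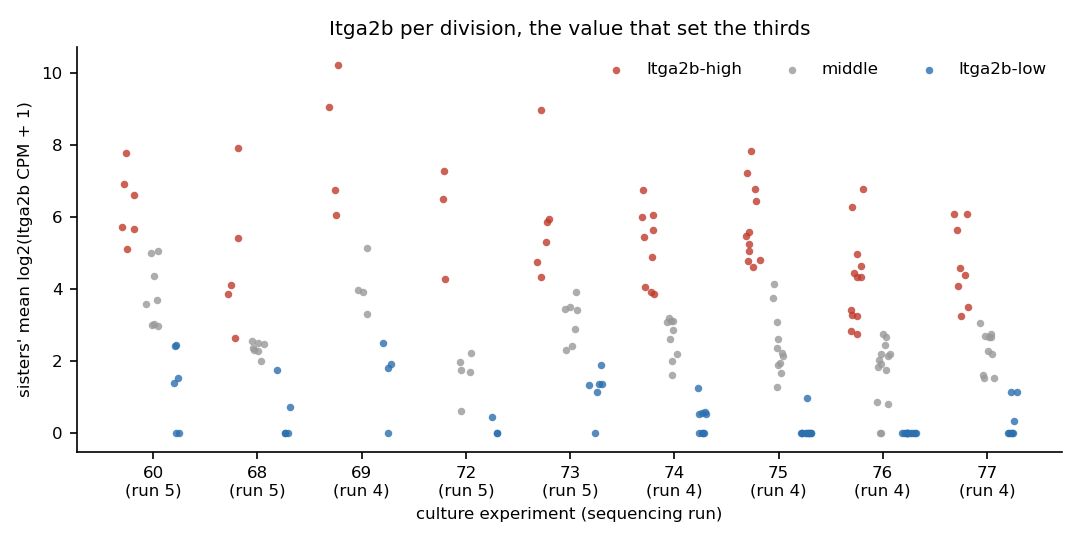
Each point is a division, placed by its culture experiment (x axis) and the sisters' mean log2(Itga2b CPM + 1) (y axis), with Itga2b-high in red, middle divisions in grey and Itga2b-low in blue. The edges between groups sit at different levels in different experiments, and the Itga2b-low divisions of experiment 76 are all at 0.

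Some library measures differed between the groups. Cells of Itga2b-high divisions had 9929 ± 441.8 detected genes and those of Itga2b-low divisions 9583 ± 388.3 (SD over 9 experiments), a difference of 345.8 ± 226.99 that was positive in 8 of 9 experiments (exact two-sided sign-flip permutation p = 0.00781, adjusted p = 0.0156 over 4 measures). Gene counts per ERCC count, a measure of RNA per cell, were higher by 0.62 ± 0.56 on the log2 scale, also in 8 of 9 experiments (exact permutation p = 0.00781, adjusted p = 0.0156). Total counts differed by 0.06 ± 0.19 on the log2 scale (exact permutation p = 0.359) and the mitochondrial share by -0.11 ± 0.29 percentage points (exact permutation p = 0.27). Each experiment sat on a single plate except experiment 69, which had 3, so plates were balanced between the groups in the other 8. Total counts on genes ran from 76735 to 2444858 per cell.

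The labelled cell type was checked against markers. Of 8 HSC markers 7 were counted and Hoxb5 was at 0, while Mecom and Kit were found in 99.2% to 100% of the cells of both groups. The erythroid marker Alas2, the myeloid markers Mpo and Ctsg, the lymphoid markers Il7r, Rag1 and Cd3e and the macrophage marker C1qa were at 0 in all cells of both groups. Of 7 megakaryocyte and platelet markers other than Itga2b all had a count, but Gp1bb was found in 3.13% of Itga2b-high and 0% of Itga2b-low cells, and Tubb1, a late megakaryocyte tubulin, in 1.56% and 2.34%. The summed level of those 7 genes ran from 251.96 to 441.5 CPM in Itga2b-high divisions and from 128.9 to 334.6 CPM in Itga2b-low divisions, and was higher in 8 of 9 experiments. The 3 macrophage markers summed to 5.98 to 99.3 CPM in Itga2b-high and 2.34 to 74.04 CPM in Itga2b-low divisions, higher in 8 of 9 experiments, and the 6 myeloid markers to 10.8 to 39.1 CPM and 29.1 to 90.2 CPM, higher in 1 of 9. Their part in the results was not tested.

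Across all other genes, Itga2b-high divisions had more of the integrin partner gene Itgb3, the tubulin gene Tuba8, the retinaldehyde dehydrogenase gene Aldh1a1, the transcription factor gene Zbtb16, the cyclin A2 gene Ccna2 and the kinetochore gene Ndc80. They had less of the HSC surface genes Ly6a and Procr. Counts were summed per experiment and group, giving 9 sums a group in which more cells with a gene and more RNA per cell cannot be told apart, and compared with edgeR's quasi-likelihood test with the experiment as block. At an adjusted p under 0.05, 47 of 11971 genes were called (0.393%), 22 of them higher (0.184%) and 25 lower (0.209%) in Itga2b-high divisions. At an unadjusted p under 0.05 there were 1543 genes (12.9%), 798 of them higher and 745 lower. Whatever their p, 6067 of the 11971 genes were positive (50.7%) and 5904 negative.

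Of the 47 genes, 36 differed the same way in 9 of 9 experiments (76.6%), beside 2.04% of all genes tested. The test is blocked on the same experiments, so this count is a description. In 45 of the 47 the mean of the middle divisions lay between the other means. The genes were chosen by the gap between those means, so this count is a description too. Its share over all genes was not computed. Groups with separate ranges were found for 1 of the 47 genes and 2 of all 11971 genes tested. The called one was Frs2, the gene of an adaptor of fibroblast growth factor receptors, named after its values were seen, at 47.6 to 70.7 CPM in Itga2b-high and 75.2 to 132.7 CPM in Itga2b-low sums.

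The number of calls rested on the set of experiments. It was 15 without experiment 60, 40 without 68, 6 without 69, 9 without 73, 19 without 74, 9 without 75, 11 without 76 and 19 without 77, while without experiment 72 it was 1.35% of the genes tested. By name, 6 genes passed in each of these 9 fits: Aldh1a1, Tuba8, Lgals9, Ly6a, Nek6 and Ablim1. With the number of detected genes as a covariate 0 genes passed (0.0%; 821 or 6.86% at an unadjusted p under 0.05). The differences in that fit were 1.35 for Aldh1a1, 0.77 for Lgals9, 0.69 for Itgb3 and -1.17 for Ly6a, beside 1.26, 0.61, 0.67 and -1.08 without the covariate. Other called genes had smaller differences in it, such as Tuba8 (1.88 beside 2.29) and Gimap6 (-0.71 beside -0.96). Pfkp (0.43 beside 0.55) and Ifitm3 (-0.25 beside -0.53) were smaller as well. The part of detection in the calls was not tested. With a G2/M score as a covariate 1 gene passed (0.00835%; 8.41% at an unadjusted p under 0.05), Aldh1a1.

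Other ways of testing or grouping gave other shares. DESeq2 on the same sums called 4.37% of genes and limma on mean log2(CPM + 1) per group 3.69%, of which more were higher (2.89%) than lower (0.802%), with a median over all genes of 0.10 in that fit. The share was 0.623% with no filter on low counts, 1.85% with the divisions split in 2, 2.76% with the top and bottom 25%, 0.501% with tied divisions kept and 2.37% with each cell thinned to 300000 counts. It was 0.0% without the experiment as block, within either sequencing run alone, or ranked by the daughter with fewer lysosomes and measured in the sister, and 0.00917% the other way round.

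**Figure D2:**
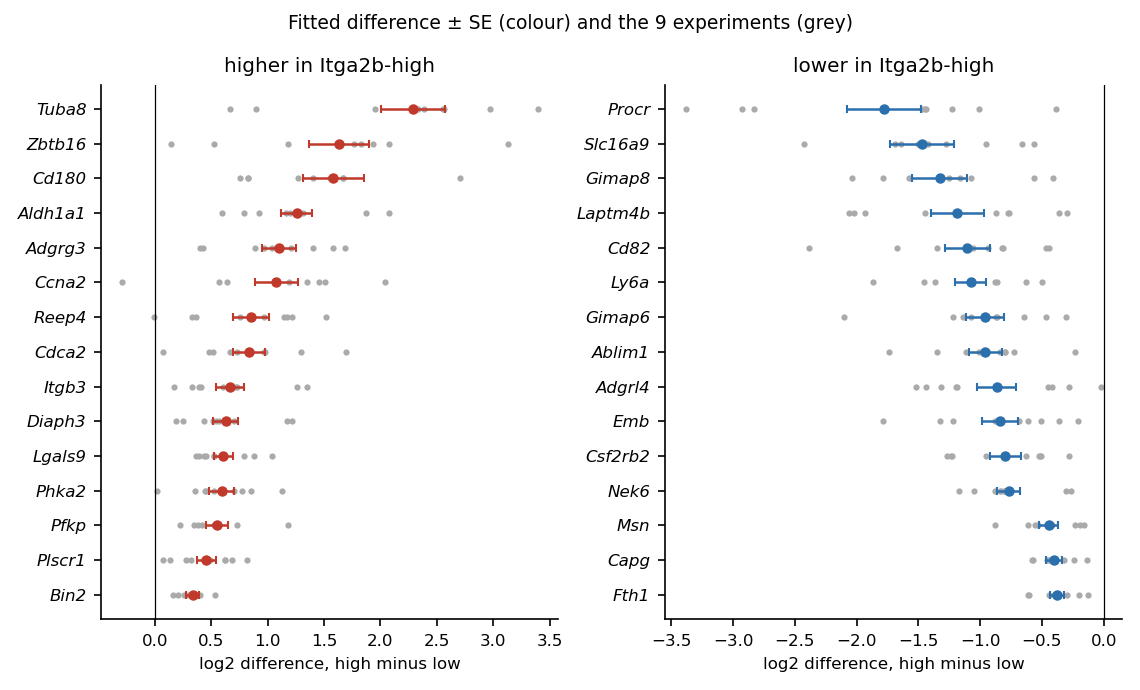
Fitted log2 difference, Itga2b-high minus Itga2b-low, with its SE (coloured) for the 15 genes with the smallest p in each direction, and the difference of log2(CPM + 1) in each of 9 experiments (grey). Nearly all grey points lie on the side of the fit, and the widest spreads belong to Tuba8, Zbtb16 and Procr.

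Itgb3 (ENSMUSG00000020689; chr11:104608000-104670476, plus strand) was the called member of the integrin alphaIIb-beta3 list. It ran from 156.1 to 260.8 CPM with a median of 185.9 CPM in Itga2b-high sums, against 88.2 to 207.7 CPM with a median of 116.98 CPM in Itga2b-low sums. The ranges overlapped, yet every experiment had its higher value in Itga2b-high divisions, by 0.67 ± 0.13 on the log2 scale (SE; adjusted p = 0.0407). Itgb3 was counted in 99.2% and 97.7% of cells, so nearly every cell of both groups carried it. Of 19 tested members of the list 1 was called, 14 were positive (73.7%) and the median was 0.21. Over all genes tested 0.184% were called higher, 50.7% were positive and the median was 0.00. Vcl, which links integrins to actin through vinculin, stood at 0.49 ± 0.12 (adjusted p = 0.0955) and the kinase gene Fyn at 0.51 ± 0.13 (adjusted p = 0.114). Among 13 tested other integrin genes none was called and the median was 0.00. The lowest of them was Itgb5, at -2.60 ± 0.59 (adjusted p = 0.0853), with 3.12 ± 2.87 CPM in Itga2b-high sums and 14.6 ± 6.6 CPM in Itga2b-low sums (SD, n = 9 each).

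Platelet surface receptors gave 0 calls among 15 tested genes, with a median of 0.26 and 6 at an unadjusted p under 0.05, all of these higher. Of all 11971 genes tested 798 were higher at that unadjusted p. F2r, which encodes the thrombin receptor PAR1, ran from 247.6 to 697 CPM with a median of 316.1 CPM in Itga2b-high sums, against 186.3 to 304.97 CPM with a median of 213.1 CPM in Itga2b-low sums. Its value was higher in 9 of 9 experiments, by 0.65 ± 0.13, and its adjusted p of 0.052 missed the threshold. Gp9, described above by its promoter, was counted in 67.2% of Itga2b-high cells and 38.3% of Itga2b-low cells. It averaged 20.1 ± 9.07 CPM in Itga2b-high and 8.25 ± 7.32 CPM in Itga2b-low sums (SD, n = 9 each), and its difference of 1.73 ± 0.47 was not called (adjusted p = 0.124). The tetraspanin gene Cd9 (0.26 ± 0.10, adjusted p = 0.261) and Slamf1, which encodes CD150 (1.88 ± 1.25, adjusted p = 0.58), were not called.

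Platelet granule proteins gave 0 calls among 16 tested genes with a median of 0.40, and 13 were positive (81.25%, beside 50.7% of all genes tested). Tgfb1, the cytokine stored in alpha granules, was higher in 9 of 9 experiments at 0.47 ± 0.12 but was not called (adjusted p = 0.0954). The chemokine gene Pf4 averaged 26.3 ± 26.1 CPM in Itga2b-high and 10.5 ± 6.19 CPM in Itga2b-low sums (SD, n = 9 each), a difference of 1.11 ± 0.49 (adjusted p = 0.352). Vwf, which encodes von Willebrand factor and is the usual marker of platelet-biased HSCs in mouse, was counted in 68.8% and 64.1% of cells. Its difference was 0.74 ± 0.51 (adjusted p = 0.6), with the higher value in Itga2b-high divisions in 5 of 9 experiments. Mmrn1, encoding multimerin (0.38 ± 0.13, adjusted p = 0.228), Selp, encoding P-selectin (0.56 ± 0.65, adjusted p = 0.799), and Gas6, encoding a ligand of TAM receptor kinases (-1.36 ± 0.33, adjusted p = 0.095), were not called either.

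The megakaryocyte transcription factors gave 0 calls among 15 tested genes and a median of 0.09. Gata2, a GATA factor of stem and early progenitor cells, ran from 179.7 to 414.3 CPM with a median of 290.2 CPM in Itga2b-high sums, against 104.6 to 213.3 CPM with a median of 162.5 CPM in Itga2b-low sums. It was higher in 8 of 9 experiments by 0.87 ± 0.18 and stood just outside the threshold (adjusted p = 0.0553). Gfi1b, a repressor needed for erythroid and megakaryocyte development, was counted in 86.7% of Itga2b-high and 60.9% of Itga2b-low cells, and its difference of 0.85 ± 0.26 was not called (adjusted p = 0.163). Runx1 stood at 0.39 ± 0.14 (adjusted p = 0.248) and Fli1, an ETS factor, at 0.00 ± 0.11 (adjusted p = 0.994). Gata1, the GATA factor of erythroid and megakaryocyte maturation, did not pass the filter on low counts and was not tested. It was counted in 12.5% of Itga2b-high cells and 0.781% of Itga2b-low cells, with experiment sums of up to 36.2 CPM in Itga2b-high and up to 0.06 CPM in Itga2b-low divisions.

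In the list of megakaryocyte cytoskeleton and maturation genes, Tuba8 was higher and Ablim1 lower among 15 tested, beside 0.393% called over all genes. Tuba8 (ENSMUSG00000030137; chr6:121210696-121226854, plus strand) encodes an alpha-tubulin isotype. It ran from 31.9 to 250.3 CPM with a median of 51.2 CPM in Itga2b-high sums, against 3.82 to 47.2 CPM with a median of 9.58 CPM in Itga2b-low sums. Every experiment was higher in Itga2b-high divisions, by 2.29 ± 0.28 (adjusted p = 0.00476), and 85.9% of Itga2b-high cells and 48.4% of Itga2b-low cells held a count. Tuba4a, another alpha-tubulin gene, stood at 0.48 ± 0.10 and was not called (adjusted p = 0.0553). Reads shared between tubulin genes could be split among them by the counting. Ablim1, which encodes an actin-binding LIM protein, averaged 73.2 ± 27.3 CPM in Itga2b-high and 138.6 ± 39.3 CPM in Itga2b-low sums (SD, n = 9 each), lower by 0.96 ± 0.13 in 9 of 9 experiments (log2 -0.96, adjusted p = 0.00924).

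**Figure D3:**
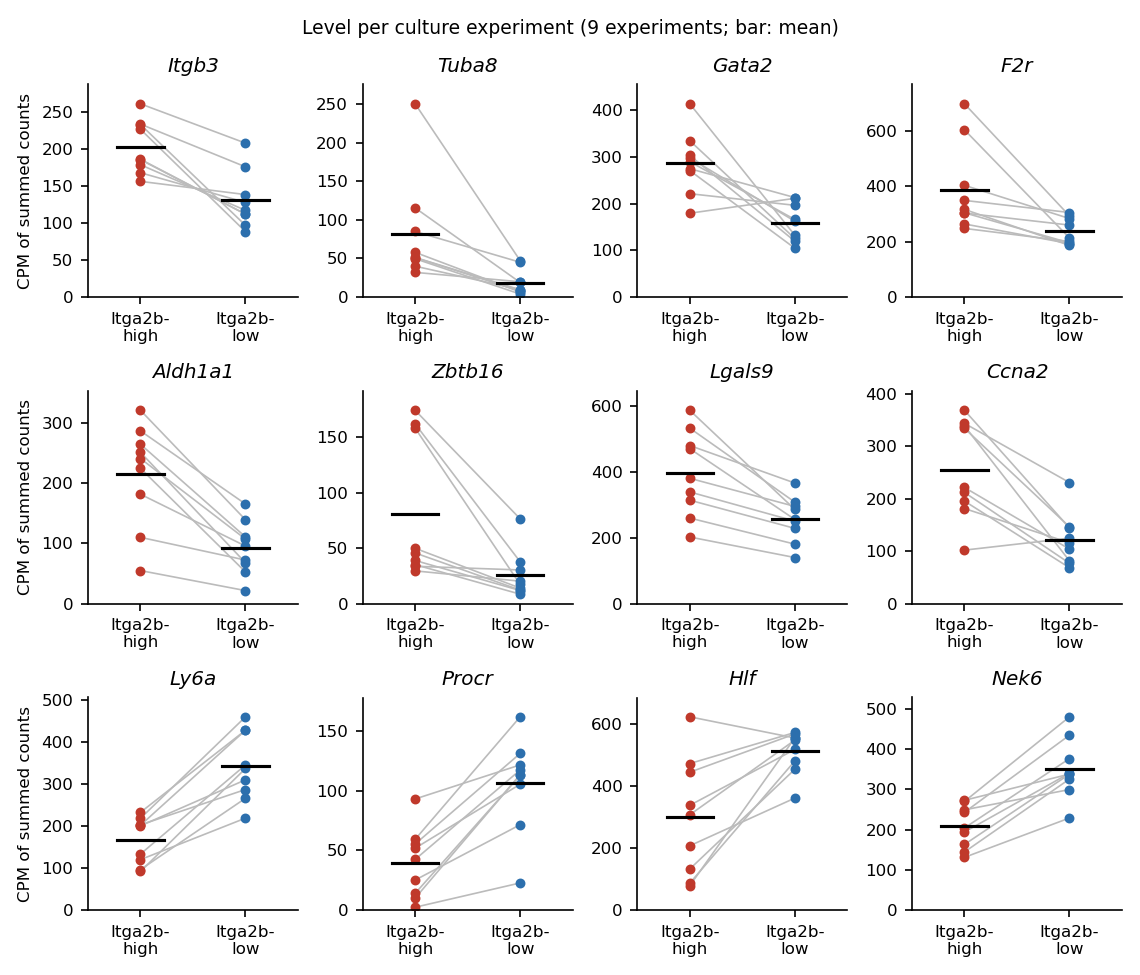
CPM of the summed counts (y axes, from 0) in Itga2b-high (red, left) and Itga2b-low divisions (blue, right) for 12 genes; each grey line joins the values of an experiment and the black bar is the mean of 9 experiments. For Itgb3, Tuba8, Aldh1a1 and Lgals9 every line is higher at Itga2b-high, and for Ly6a, Procr and Nek6 every line is lower there.

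The gene with the smallest p was Aldh1a1 (ENSMUSG00000053279; chr19:20492715-20643465, plus strand), whose enzyme makes retinoic acid from retinaldehyde. It ran from 54.9 to 321.9 CPM with a median of 241.5 CPM in Itga2b-high sums, against 21.5 to 165.8 CPM with a median of 95.7 CPM in Itga2b-low sums. All 9 experiments were higher in Itga2b-high divisions, by 1.26 ± 0.14 (adjusted p = 0.00476). Zbtb16 (chr9:48654297-48836222), which encodes the transcriptional repressor PLZF, ran from 29.4 to 174.2 CPM in Itga2b-high and from 8.42 to 76.4 CPM in Itga2b-low sums, a difference of 1.63 ± 0.26 in 9 of 9 experiments (adjusted p = 0.0261). Lgals9, encoding the secreted lectin galectin-9, was counted in every cell and averaged 396.6 ± 129.7 CPM in Itga2b-high and 256.9 ± 68.4 CPM in Itga2b-low sums (SD, n = 9 each), higher by 0.61 ± 0.08 (adjusted p = 0.00924). Both were higher in all experiments, at very different levels of expression.

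Adgrg3, an adhesion G protein-coupled receptor gene, was higher by 1.102 ± 0.15 (adjusted p = 0.00985), and Cd180, a Toll-like receptor homologue, by 1.58 ± 0.27 (adjusted p = 0.0334). Smaller differences were found for Pfkp, a phosphofructokinase gene of glycolysis (0.55 ± 0.10), Plscr1, encoding a phospholipid scramblase (0.46 ± 0.08), Phka2, encoding a phosphorylase kinase subunit (0.59 ± 0.11), and Bin2, encoding a membrane-bending BAR protein (0.34 ± 0.06). Their adjusted p lay between 0.0344 and 0.0407. Alox5, outside the rule that chose named genes and named after its values were seen, and Slc22a3 differed in the share of cells with a count. Alox5, which encodes the 5-lipoxygenase of leukotriene synthesis, was counted in 25% of Itga2b-high and 3.91% of Itga2b-low cells, at a median over experiments of 12.3 CPM and 0 CPM. It passed the low-count filter largely through Itga2b-high divisions, so its call is no support for a difference. Slc22a3, an organic cation transporter gene, was counted in 51.6% and 21.9% of cells (2.84 ± 0.54, adjusted p = 0.0412). Its sums ran from 7.59 to 196.6 CPM in Itga2b-high and from 0.28 to 19.98 CPM in Itga2b-low divisions. Itga2b-high sums by themselves could carry it through the filter, so its call is no support for a difference either.

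Among genes of the late cell cycle, 2 of 44 tested G2/M genes were called, both higher in Itga2b-high divisions. All 44 were positive with a median of 0.80, 37 of them at an unadjusted p under 0.05. Over all 11971 genes tested 50.7% were positive and the median was 0.00. Of these, 798 were higher at that unadjusted p and 0.184% were called higher. The summed level of the G2/M genes ran from 3646 to 11606 CPM with a median of 7722 CPM in Itga2b-high divisions, against 3254 to 9007 CPM with a median of 4356 CPM in Itga2b-low divisions. Experiment 72, with 3 divisions in each group, was the exception to the direction, at 3646 CPM in Itga2b-high and 6929 CPM in Itga2b-low divisions. Leaving it out raised the share of all genes called to 1.35%, against 0.393% with it.

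Ccna2, the cyclin A2 gene, averaged 254.8 ± 93.1 CPM in Itga2b-high and 121.1 ± 49.7 CPM in Itga2b-low sums (SD, n = 9 each), higher by 1.08 ± 0.19 in 8 of 9 experiments (adjusted p = 0.0344). Ndc80, a kinetochore gene, was higher by 0.96 ± 0.19 (adjusted p = 0.0459). Cdca2 (0.84 ± 0.14), Diaph3 (0.63 ± 0.11) and Reep4 (0.85 ± 0.16), genes outside the list with roles in mitosis or cytokinesis, were called as well, at adjusted p of 0.0335, 0.0344 and 0.0407. Cdk1 (0.73 ± 0.15, adjusted p = 0.0553), Dlgap5 (1.04 ± 0.22, adjusted p = 0.0654), Mki67 (0.73 ± 0.20, adjusted p = 0.122) and Plk1 (1.07 ± 0.44, adjusted p = 0.308) were not called. Of 38 tested G1/S genes 37 were positive (97.4%, beside 50.7% of all genes tested) and none was called, with a median of 0.24. Clspn, a replication checkpoint gene among them, stood at 0.63 ± 0.18 (adjusted p = 0.15).

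A fit with the G2/M score of each sum as a covariate was made beside this. In it the G2/M list had a median of -0.26, and Ccna2 stood at 0.25 (adjusted p = 0.81). Aldh1a1 stood at 1.86 (adjusted p = 0.00644), Zbtb16 at 2.22 (adjusted p = 0.344), Tuba8 at 2.18 (adjusted p = 0.392) and Itgb3 at 0.83 (adjusted p = 0.429). Ly6a was at -0.80 (adjusted p = 0.423) and Hlf at -0.24 (adjusted p = 0.911). When the part of Itga2b that followed the G2/M score and the number of detected genes was removed before ranking, an alternative chosen after seeing the data, 4 genes were called (0.0333%): Aldh1a1, Tuba8, Lgals9 and Alox5, the last with the caution on its filter given above. Removing the G2/M part alone left 5 calls (0.0416%), these 4 and Ly6a, and removing the detected-gene part alone left 43 (0.359%).

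Of 29 tested genes of HSC identity 3 were called, all lower in Itga2b-high divisions, 21 were negative and the median was -0.38. Over all genes tested 0.209% were called lower, 5904 of 11971 were negative and the median was 0.00. The summed level of the list ran from 2375 to 4978 CPM in Itga2b-high and from 3506 to 6197 CPM in Itga2b-low divisions and was lower in 9 of 9 experiments. The list's median was -0.03 with the G2/M score as a covariate, and 0.25 in the cells without a sequenced sister described below. Ly6a (ENSMUSG00000075602; chr15:74994877-74998031, minus strand), which encodes the stem cell antigen Sca-1, ran from 91.9 to 232.5 CPM with a median of 200.4 CPM in Itga2b-high sums, against 218.7 to 459.9 CPM with a median of 336.9 CPM in Itga2b-low sums. It was lower in 9 of 9 experiments, with a log2 difference of -1.08 ± 0.13 (adjusted p = 0.00476), although 95.3% and 99.2% of cells held a count. Procr (ENSMUSG00000027611; chr2:155751117-155755471, plus strand), encoding the endothelial protein C receptor that marks long-term HSCs, ran from 2.33 to 93.3 CPM with a median of 42.5 CPM in Itga2b-high sums, against 22.7 to 162.3 CPM with a median of 113.7 CPM in Itga2b-low sums. It was counted in 68.8% of Itga2b-high and 93% of Itga2b-low cells, and its log2 difference was -1.78 ± 0.30 (adjusted p = 0.0323). Ifitm3, an interferon-induced membrane protein gene, was the other called member (-0.53 ± 0.10, adjusted p = 0.0456).

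Ifitm1 (-1.004 ± 0.21, adjusted p = 0.0553) and the transcription factor gene Hlf (-1.05 ± 0.28, adjusted p = 0.119) were not called. Hlf averaged 298.6 ± 189.4 CPM in Itga2b-high and 512 ± 69.7 CPM in Itga2b-low sums (SD, n = 9 each), with the wider spread among Itga2b-high divisions. The cytokine receptor gene Kit differed by -0.14 ± 0.12 (adjusted p = 0.701). Ly6 and Ifitm genes have close relatives, so reads shared with these could be split by the counting.

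Nek6, a kinase gene of mitotic spindle assembly, averaged 208.1 ± 53.9 CPM in Itga2b-high and 351.6 ± 73.5 CPM in Itga2b-low sums (SD, n = 9 each) and had a log2 difference of -0.77 ± 0.09 in 9 of 9 experiments (adjusted p = 0.00476). The moesin gene Msn (-0.44 ± 0.08), the actin-capping gene Capg (-0.40 ± 0.07) and the tetraspanin gene Cd82 (-1.11 ± 0.18) were lower, as were the embigin gene Emb (-0.84 ± 0.15) and the adhesion receptor gene Adgrl4 (-0.87 ± 0.16). Csf2rb2, a beta subunit of the interleukin-3 receptor with a near-identical neighbour gene, stood at -0.79 ± 0.12, and Fth1, the ferritin heavy chain gene with many processed copies, at -0.38 ± 0.06. The GTPase genes Gimap6 (-0.96 ± 0.15) and Gimap8 (-1.33 ± 0.22), the transporter gene Slc16a9 (-1.47 ± 0.26) and Laptm4b, encoding a protein of late endosomes and lysosomes (-1.18 ± 0.21), were also called. All were lower in 9 of 9 experiments, with adjusted p between 0.0232 and 0.039.

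Of 15 tested activation and multipotent progenitor genes 2 were called, Emb and Adgrl4, beside 0.209% called lower over all genes. The median of this list was -0.14. Cd34 differed by -0.09 ± 0.12 (adjusted p = 0.849) and Flt3, the receptor gene of lymphoid-primed progenitors, by -1.63 ± 0.70 (adjusted p = 0.338). Cd48 did not pass the filter on low counts. Lysosomal genes, relevant because the divisions were imaged for lysosome inheritance, gave 0 calls among 30, with 28 negative, beside 5904 of all 11971 genes. Their median was -0.21 (-0.08 with the G2/M score as a covariate and 0.13 in cells without a sequenced sister). The lowest adjusted p among them belonged to Neu1, encoding a sialidase (-0.93 ± 0.19, adjusted p = 0.0553), followed by Psap (-0.33 ± 0.08, adjusted p = 0.0853) and the cathepsin gene Ctsl (-0.74 ± 0.17, adjusted p = 0.0853). The cathepsin gene Ctss was counted in 30.5% of Itga2b-high and 71.9% of Itga2b-low cells (adjusted p = 0.0896).

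The remaining lists gave few calls, beside 0.393% called over all genes. Interferon response genes had a median of -0.30 with 1 of 22 called, Ifitm3, and glycolysis a median of 0.03 with 1 of 16 called, Pfkp. Macrophage and dendritic genes had a median of -0.69 over 7 tested and 0 calls, with the receptor kinase gene Axl at -1.17 ± 0.24 (adjusted p = 0.0553). Erythroid genes had a median of 0.27 over 10 tested, quiescence genes 0.08 over 17, genes of ribosome biogenesis and MYC targets 0.07 over 25, and TGF-beta genes -0.06 over 19, with 0 calls in each. Myeloid (10 tested, -0.20), lymphoid (5, -0.23), mast cell and basophil (6, 0.15), stroma and endothelium (8, 0.04), JAK-STAT5 signalling (19, -0.15) and mitochondrially encoded genes (10, -0.08) also had 0 calls.

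**Figure D4:**
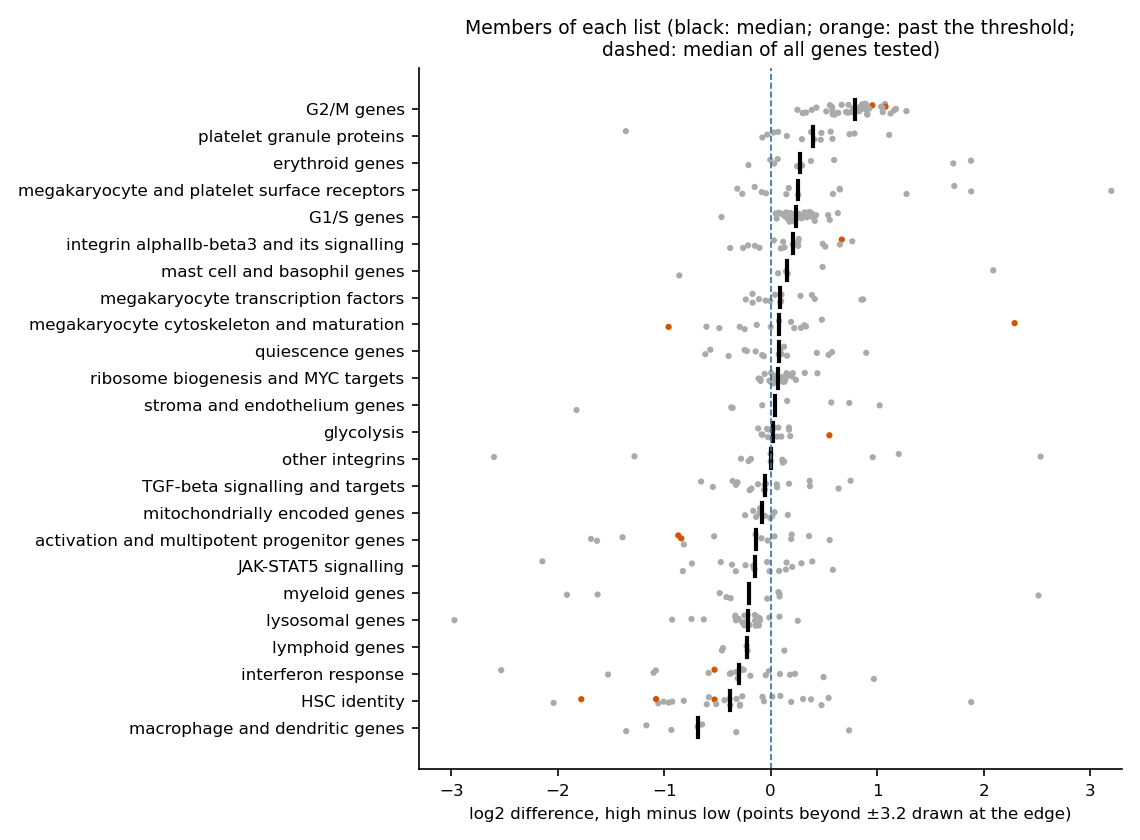
Fitted log2 difference, Itga2b-high minus Itga2b-low (x axis), of each tested member of 24 gene lists (rows), with the list median as a black bar, called genes in orange and the median of all genes tested as a dashed line. The G2/M genes lie together to the right around 0.80, and HSC identity genes are spread to the left around -0.38.

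Grouping and measurement were also held in different cells. When each cell was placed by its sister's Itga2b alone, 28 of 12049 genes were called (0.232%), 15 higher (0.124%) and 13 lower (0.108%). In that grouping Tuba8 stood at 1.66 (adjusted p = 0.0377), Itgb3 at 0.58 (adjusted p = 0.043) and Lgals9 at 0.48 (adjusted p = 0.0418), and Ly6a at -0.66 (adjusted p = 0.0418). Aldh1a1 (0.76, adjusted p = 0.0513) and Procr (-1.40, adjusted p = 0.082) were not called in it. The cells are those of the main comparison, regrouped, so the values stand side by side and are not independent of it.

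A further 68 cells lay outside the kept divisions and were not used to choose the groups. Whether each of them lacked a sequenced sister was not checked beyond that rule. The 22 highest and 22 lowest by their own Itga2b within sequencing run were compared with limma on log2(CPM + 1). The fit had a term for run and none for experiment, so these groups can differ in their experiments. Each cell counted as a replicate in it, so its p-values do not measure the spread between experiments. In that fit 0 of 11971 genes passed (0.0%; 1445 or 12.1% at an unadjusted p under 0.05). Of the 47 genes called in the divisions, 30 had the same direction there (63.8%), beside 6438 of all 11971 genes (53.8%). Most genes were positive in that comparison (9288 of 11971, median 0.35), so a positive sign there is common. By direction, 21 of the 22 genes called higher were positive there, the exception being Bin2, and 9 of the 25 genes called lower were negative. Tuba8 stood at 1.45, Aldh1a1 at 1.16, Itgb3 at 1.04 and Lgals9 at 0.72. Ly6a stood at 0.11, Nek6 at 0.27 and Procr at 0.25, the opposite sign to that in the divisions.

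**Figure D5:**
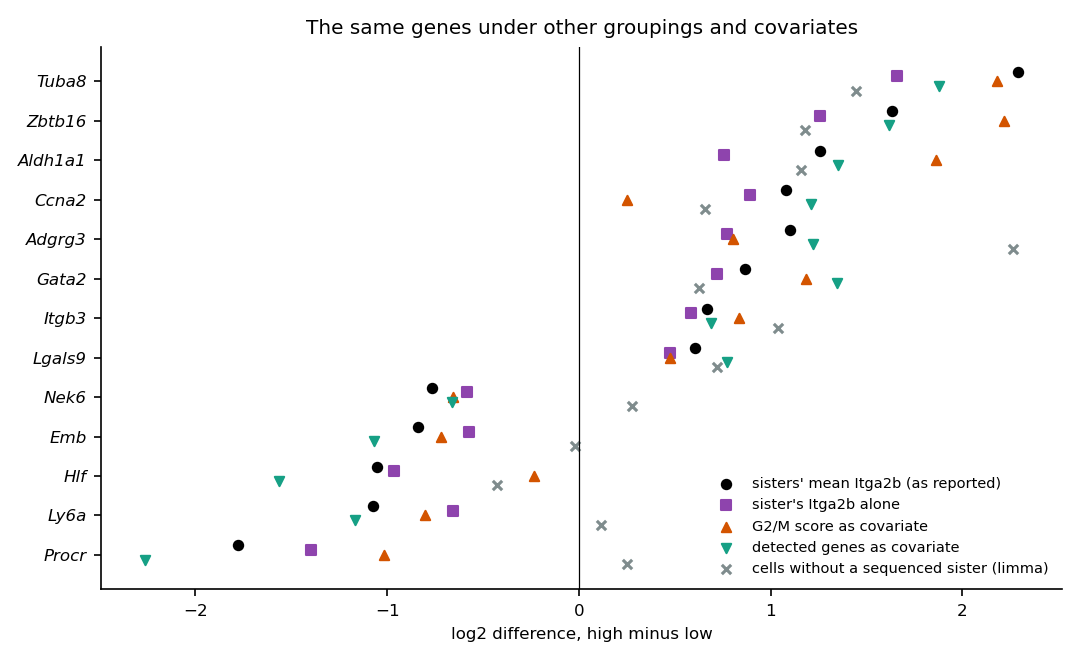
Log2 difference, Itga2b-high minus Itga2b-low (x axis), of 13 genes (rows) in the main comparison (black) and 4 alternatives: cells placed by their sister's Itga2b, a G2/M score or the number of detected genes as a covariate, and cells without a sequenced sister. Genes higher in Itga2b-high divisions stay right of 0 under all of these, while Nek6, Ly6a and Procr turn positive in cells without a sequenced sister.

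The genes whose levels followed Itga2b most closely were ranked over all divisions by Spearman's rho of the sisters' mean log2(CPM + 1), centred on the experiment, among 11698 genes counted in at least 20% of cells. These values share cells with the comparison above and are a description. The most alike were Tuba8 (rho 0.48), Zbtb16 (0.46), Fgf3 (0.41), Lgals9 (0.39), Col18a1 (0.38), Tnk2 (0.38), Galnt1 (0.38), Slc22a3 (0.37), Robo3 (0.36) and Gp9 (0.36). The most opposite, listed after their values were seen, were Camsap2 (-0.48), Procr (-0.48), Gstm1 (-0.47), Emb (-0.46), Ctss (-0.46), Hlf (-0.45), Msn (-0.45), Laptm4b (-0.44), Ablim1 (-0.43) and St8sia4 (-0.42). All genes share the cells, the libraries and their depth with Itga2b, and the part of these in the values was not tested.

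Whether Itga2b itself went with lysosome inheritance was tested over all divisions, a measure that the ranking by the sisters' mean did not use. Daughters with more lysosomes had a mean log2(Itga2b CPM + 1) of 3.17 ± 0.66 and their sisters with fewer 2.75 ± 1.02 (SD over 9 experiments), a difference of 0.43 ± 0.60 that was positive in 7 of 9 experiments (exact two-sided sign-flip permutation p = 0.0625). The smallest p that 9 experiments allow is 0.00391. Without experiment 69 the difference was larger, at 0.55 (exact permutation p = 0.0156), so the p-value depended on the set of experiments. It was 0.13 within sequencing run 4 and 0.80 within run 5, where 5 and 4 experiments cannot give an exact p below 0.0625 and 0.125.

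Whether genes responded differently to lysosome inheritance in Itga2b-high and Itga2b-low divisions was tested as an interaction on counts summed per experiment, group and label. The fit had a term for each experiment but did not pair the sums of sisters from the same divisions. Differences between divisions therefore stayed in its error. With edgeR 0 of 11947 genes passed (0.0%), 400 had an unadjusted p under 0.05 (3.35%), and DESeq2 called 3. The smallest p belonged to Rfc4, a replication factor gene (interaction -1.07 ± 0.22 on the log2 scale, adjusted p = 0.312), followed by Fam126b, Ifih1, P2rx6 and Synpo at adjusted p of 0.456, 0.456, 0.456 and 0.6.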

How the data were processed

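The deposited tables hold counts, raw reads per gene and single-cell library with no normalization by the authors. Per the submitters' processing notes the tools were SAMtools and, from Subread 1.5.0, featureCounts. The authors' aligner and assembly were not given in the sources used here. The 55450 gene identifiers match GENCODE release M21, which supplied symbols and positions, and 92 ERCC rows were left out of totals. The deposited metadata hold labels per cell (another kind of value). A further 171 count columns of no listed sample were not used.

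Members and gene lists were chosen with earlier results of these data known. Divisions tied at an edge were ordered by their labels. Counts were summed per experiment and group and tested by the quasi-likelihood method of edgeR 4.0.16 (R 4.3.3). The fit had a term for each experiment and followed TMM scaling and the default low-count filter. It was also run on simulated counts of genes past the filter. These held no experiment differences and no grouping by a sparse gene, so that run did not test these parts. Benjamini-Hochberg adjustment ran over all genes except Itga2b, with 0.05 as threshold, and each SE is the log2 difference divided by the square root of F. Printed levels are CPM of these sums, in which deeper cells weigh more. Single values were tested over experiments by exact two-sided sign-flip permutation. DESeq2 1.42.0 and limma 3.58.1 gave alternatives, limma on log2(CPM + 1). Nothing says that experiments used separate mice, so p-values measure the spread between these cultures. The fit of cells without a sequenced sister is the exception, since each cell counted as a replicate there.

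Named genes are the 15 with the smallest p in each direction among those counted in at least 20% of cells, up to 4 members of each list by p, a fixed set of megakaryocyte and stem cell genes, the 10 genes most like Itga2b and the 5 smallest p of the interaction. The library preparation is not stated to keep strand, and 20 of the 47 called genes overlap a gene on the opposite strand, among them Aldh1a1, Nek6, Tuba8, Ccna2, Cd180, Pfkp and Emb, so reads of the partner cannot be told apart. Reads carry no molecular identifiers. Figures and summaries used matplotlib 3.10.9, scipy 1.17.1, pandas 2.3.3 and numpy 2.4.6 under Python 3.11.15. Promoter sequences are from RefSeq (GRCm38.p6). Alternatives covered normalization, filter, test, block, tie and group size, run, depth, covariates, cells not used for ranking and each experiment left out.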

Additional observations from a re-analysis of the deposited data

Results flagged for a closer look

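Values of 1 experiment that lay far from the other 8 were looked for in 99 sets of 9 values, and 11 sets had one; chance gives about 1 in 20 sets. Of these, 6 belonged to experiment 69, which has 4 divisions in each group. Itga2b there pooled to 480.0 CPM in Itga2b-high and 61.01 CPM in middle divisions, Tuba8 stood at 250.3 CPM and Gfi1b at 173.6 CPM in Itga2b-high divisions, Alox5 at 7.46 CPM in Itga2b-low divisions, and the Cd180 difference, high minus low, was 2.70 on the log2 scale. Experiment 72, with 3 divisions in each group, gave 3: log2 differences of -2.85 for Plk1, -0.73 for Dlgap5 and -2.10 for Gimap6. The other 2 were Zbtb16 at 76.4 CPM in Itga2b-low divisions of experiment 60 and Ccna2 at 230.3 CPM in Itga2b-low divisions of experiment 75.

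The difference between Itga2b-high and Itga2b-low divisions was also compared between sequencing runs with edgeR. Of 11971 genes, 0 passed and 486 had an unadjusted p under 0.05.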

How the results depend on the processing

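The 47 genes called at an adjusted p under 0.05 kept their direction under every alternative in which they were tested, except the cells without a sequenced sister. The other alternatives reuse cells of the comparison that chose these genes, so a kept direction is a description. Its share over all genes was not computed for them. Alox5 was tested in 25 of 29 alternatives and the others in 29. Their number did not hold. Against 0.393% of genes in the comparison as reported, the share called was 4.37% with DESeq2, 3.69% with limma on mean log2(CPM + 1), 0.623% with no filter on low counts, 1.85% with the divisions split in 2, 2.76% with the top and bottom 25% and 2.37% with each cell thinned to 300000 counts. It was 0.232% with cells grouped by their sister, 0.00917% when ranked by the daughter with more lysosomes and measured in the other, 0.0% in the converse (707 genes at an unadjusted p under 0.05), 0.00835% with the G2/M score and 0.0% with detected genes as covariate, 0.0% with no replicate block (1082 genes unadjusted), 0.0% in run 4 alone (1314), 0.0% in run 5 alone (703) and 0.0% in cells without a sequenced sister. Of the alternatives added after seeing the data, removing the G2/M part of Itga2b before ranking left 0.0416%, removing the detected-gene part 0.359%, and removing both 0.0333%. RLE size factors gave 0.393% and keeping tied divisions 0.501%. Leaving out an experiment gave 0.0496% to 1.35%. The run, daughter and no-sister settings held fewer cells. The cause of the shifts was not tested in any setting. The lysosome interaction was 0 in all settings but DESeq2, with 3.

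Detected genes differed by 343.9 in run 4 (exact permutation p = 0.0625) and 348.1 in run 5 (p = 0.25), and gene counts per ERCC count by 0.61 and 0.64 with the same p. Within run 5 the mitochondrial share was 0.011 percentage points higher in Itga2b-high divisions. Itga2b between daughters with more and fewer lysosomes differed by 0.52 after thinning (exact permutation p = 0.0273) and 0.29 to 0.55 with an experiment left out.

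In cells without a sequenced sister the log2 difference turned to -0.13 for Bin2, 0.11 for Ly6a, 0.27 for Nek6, 0.14 for Csf2rb2, 0.38 for Gimap6, 0.11 for Capg, 0.25 for Procr, 0.34 for Gimap8, 0.29 for Msn, 0.14 for Slc16a9, 0.12 for Laptm4b and 0.43 for Frs2, and, among genes not called, 0.43 for Fli1, -0.21 for Pf4, 0.23 for Cd34, 0.12 for Kit and 0.54 for Neu1. With the G2/M score as covariate it turned to 0.37 for Fli1, -0.27 for Pf4, -1.13 for Selp, 0.31 for Kit, -0.025 for Dlgap5, -0.33 for Mki67 and -0.81 for Plk1. Plk1 was -0.024 with the G2/M part removed and -0.0084 with both parts removed. With detected genes as covariate Selp was -1.19 and Cd34 0.11. The Fli1 log2 high minus low difference, near 0 as reported, was 0.023 with limma, 7.85e-06 with no filter, 0.010 with no replicate block, 0.058 in run 4, 0.073 with cells grouped by their sister, 0.059 and 0.14 ranked by the daughter with more and with fewer lysosomes, 0.10 with the G2/M part removed, 0.083 with both parts removed, and -0.070 to 0.080 with an experiment left out. Selp was -0.15 in run 5, -0.19 by sister, and -0.73 and -0.60 ranked by the daughter with more and with fewer. Kit was 0.027 with limma and 0.0099 in run 5.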
